A study of Rattus norvegicus with 8 samples.

Results

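The cytosolic ribosomal proteins are the proteins that, with ribosomal RNA, build the ribosomes of the cytosol. Their members here are all probes whose RefSeq accession carries a rat symbol of Rpl or Rps followed by a number, or Rplp0, Rplp1, Rplp2 or Rpsa, with the Rps6k kinases left out. That rule found 142 probes of 81 genes among 30367 probes, of which 18005 carry 15168 gene symbols. It uses names and no measured value. Of these genes, 34 have 1 probe, 36 have 2, 8 have 3 and 3 have 4, and probes of the same gene read the same transcript and are not replicates.

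The arrays measured total RNA of liver from male rats aged 22 weeks. Feeding lasted 14 weeks: 5 samples are from rats on a high fat diet, with NAFLD (non-alcoholic fatty liver disease) as their labelled disease state, and 3 are from control rats on standard chow. No strain, dietary composition or liver measurement stands in the labels. Whether each sample is a separate animal is not stated in the labels. The p-values therefore measure only the spread between these samples, which may be technical, and the number of arrays limits the precision.

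Each ribosome has a small subunit, which reads the mRNA, and a large subunit, which joins the amino acids. The stalk of the large subunit, built from Rplp0, Rplp1 and Rplp2, recruits and activates the elongation factors. Ribosomal protein mRNAs are among the most abundant of a liver cell, and their translation is controlled together: many begin with a run of pyrimidines (a 5′ TOP tract) through which mTORC1, a kinase complex that senses nutrients, controls whether they are loaded onto ribosomes. An array measures the amount of each mRNA and not its translation.

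All levels are log2 signals relative to the 75th percentile of the probe's own array, and differences are high fat minus chow on that log2 scale. The high-fat arrays were brighter before scaling: the 75th percentile signal averaged 856 ± 134 intensity units on high-fat arrays and 379 ± 156 on chow arrays (SD, n = 5 and 3, exact permutation p = 0.0179, the smallest that 56 splits can give, also after adjustment over 2 measures). Probes well above background made up 83.9% ± 5.91 of all on high-fat arrays, against 69.1% ± 2.43 on chow arrays (SD, n = 5 and 3, exact permutation p = 0.0179). High-fat arrays 2, 3 and 5 were scanned together (scan 1), the 3 chow arrays together (scan 2), and high-fat arrays 1 and 4 on a later day (scan 3). Scan and diet therefore cannot be told apart. Hepatocyte markers were present: 12 of 12 were kept by the filter on dim probes, 0 passed the test, and their summed signal was 896 to 1017 times the 75th percentile on high-fat arrays and 915 to 1493 times on chow arrays. The 8 marker lists of other cells held 0 genes that passed, and their median differences ran from −0.46 (stellate cells) to 0.20 (pancreas), against −0.42 for hepatocytes. At an unadjusted p under 0.05, 4 of 12 hepatocyte marker probes were lower (33.3%) and 0 higher. Of 10 stellate cell marker probes, of 8 genes, 4 were lower (40%) and 1 higher (10%). The share lower at this cut was 9.14% over all probes tested. It was 24.7% over the brightest 10% of probes with ribosomal proteins left out. The part of these markers in the results below was not tested. In whole tissue, fewer cells of a type and less RNA per cell cannot be told apart.

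The filter on dim probes asked for a signal clear of background on 3 or more of the 8 arrays. It kept 139 member probes of 79 genes, and 130 of them, of 74 genes, were above background on all 8 arrays. Not kept were the only probes of Rpl3l, a form of Rpl3 known from striated muscle, and Rpl27l2, and 1 of the probes of Rpl28. By position in the ribosome, the kept probes were 49 of 29 small-subunit genes, 76 of 41 large-subunit genes, 4 of 3 stalk genes and 10 of 6 gene copies and paralogs. The median standard error of a member's difference was 0.18.

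Ribosomal protein mRNAs were mostly at high signal, and few of their probes passed the test between the diets. The median difference of the 139 probes was −0.26 (quartiles −0.35 and −0.09), with 116 probes lower and 23 higher in high fat. Of them, 2 passed the test as lower in high fat (Rpl29 and a probe of Rpl37l1) and 0 as higher, at an adjusted p under 0.05 over all 25627 probes tested with limma. Over all probes tested, 0.453% passed as lower and 3% as higher, or 3.45% in either direction, and among the other probes of the brightest 10% 0.902% and 0.41%. A count of 2, or 1.44%, cannot be set apart from these shares. At an unadjusted p under 0.05, 28 members were lower and 4 higher. That is 20.1% lower, against 9.14% of all probes and 24.7% of the other probes of the brightest 10%. It is 2.88% higher, against 10.9% of all probes and 3.36% of those other bright probes. Of the 125 members within the brightest 10%, 21.6% were lower and 0.8% higher at this cut.

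Brightness sets the frame for these values. Of the 139 probes, 125 (of 75 genes) lay in the brightest 10% of all probes tested. Across the array the median difference ran from 0.53 in the dimmest 10% to −0.24 in the brightest, while the median of all probes was 0.0012. The 2438 probes of the brightest 10% that are no ribosomal proteins had a median of −0.23, with 78.5% of them lower in high fat. The 125 ribosomal protein probes of that brightest group had a median of −0.27. The 14 member probes below the brightest 10% had a median of 0.05. The SD across probes was 0.23 for the ribosomal protein probes in the brightest 10%, against 0.34 for the other probes of that brightest group.

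**Figure D1:**
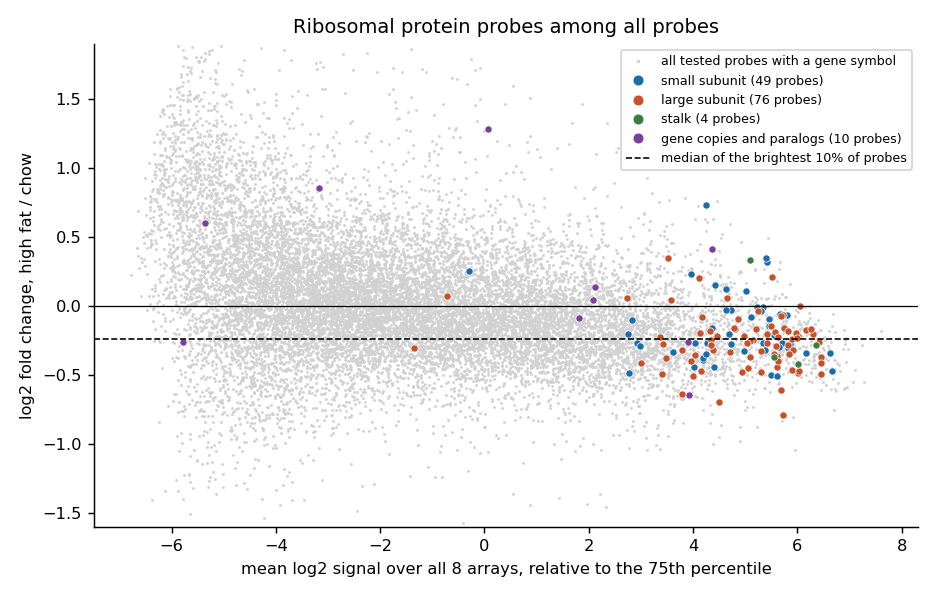
Each point is 1 probe, with its mean log2 signal over all 8 arrays relative to the 75th percentile on the x axis and its log2 difference, high fat over chow, on the y axis. Gray points are all tested probes with a gene symbol, of which some lie beyond the limits of the y axis, and coloured points are the 139 ribosomal protein probes. The coloured points crowd at the bright end around the dashed line, the median of −0.24 of the brightest 10%, and the gray cloud tilts from above 0 at the dim end to below 0 at the bright end.

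Counts of arrays that do not overlap gave the same picture. For 26 of the 139 members (18.7%) every high-fat array was lower than every chow array, against 8.97% of all probes tested and 23.4% of the other probes in the brightest 10%. For 3 members (Rps23, Rpl22l1 and Rps12l4, 2.16%, the last with no chow array above background) every high-fat array was higher, against 7.94% of all probes and 3.08% of the other probes of the brightest 10%. Of the 125 members within the brightest 10%, 20% were lower and 0.8% higher in this way. The members' share of lower probes thus stood above that of all probes and below that of the other probes of the brightest 10%.

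The shift depended on the scaling of the arrays. The members' median stayed below 0 under all 24 alternatives run, from −0.37 to −0.0094. Without chow array 3 it was −0.13. It lay below the median of all probes under 21 of the alternatives. With normexp background correction the median of all probes itself moved to −0.30 and the members' median of −0.13 lay 0.17 above it. The members' median also lay above that of all probes with cyclic loess, by 0.0077, and with only the high-fat arrays of scan 3, by 0.06. Against the other probes of the brightest 10%, the members' median differed by −0.05 to 0.04 under the 24 alternatives.

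**Figure D2:**
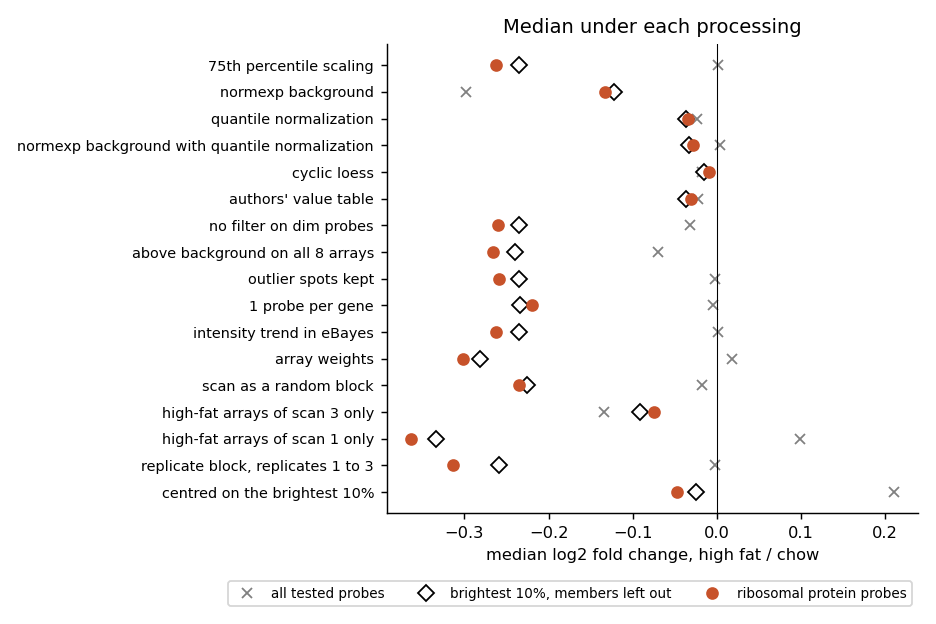
The x axis gives the median log2 difference, high fat over chow, and each line is 1 way of processing the arrays, with the setting used in the text on top. Filled circles are the 139 ribosomal protein probes (fewer where a stricter filter applies), diamonds are the other probes of the brightest 10% and crosses are all tested probes. Circles and diamonds stay side by side in every line while both move between −0.36 and −0.0094, and with normexp background correction the cross lies to the left of both.

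Array by array, the median of the members relative to each probe's own mean was 0.02, −0.18, −0.30, 0.12 and −0.17 on high-fat arrays 1 to 5, against 0.15, −0.09 and 0.39 on chow arrays 1 to 3. High-fat arrays 1 and 4 and chow arrays 1 and 3 were the higher ones, and the diets overlapped. The other probes of the brightest 10% had medians of 0.04, −0.12, −0.26, 0.08 and −0.16 on the high-fat arrays, against 0.17, −0.01 and 0.27 on the chow arrays. The members' median minus that of these probes averaged −0.02 ± 0.04 on high-fat arrays and 0.01 ± 0.10 on chow arrays (SD, n = 5 and 3). The 75th percentile signal was 725, 907, 1045, 732 and 873 intensity units on the high-fat arrays, against 300.1, 559 and 278 on the chow arrays. Within each diet the arrays with the lower 75th percentile signal had the higher member median, except that high-fat arrays 1 and 4, at nearly the same signal, stood in the other order. The part of array brightness in the shift was not tested.

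**Figure D3:**
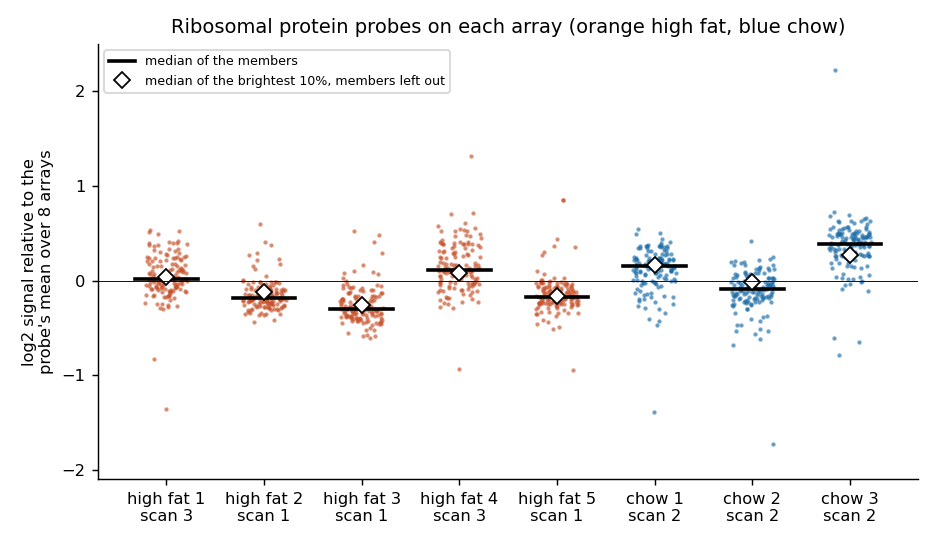
The y axis gives the log2 signal of each ribosomal protein probe relative to its own mean over the 8 arrays, with 1 point per probe and 1 column per array, high-fat arrays in orange on the left and chow arrays in blue on the right. Bars are the medians of the 139 members and diamonds the medians of the other probes of the brightest 10%. The bars run from −0.30 on high-fat array 3 to 0.39 on chow array 3, and each diamond lies close to its bar.

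Among the high-fat arrays, the members differed between the scans. Both arrays of scan 3 also had the lowest 75th percentile signals of the high-fat arrays (725 and 732 intensity units). Scan and array brightness therefore cannot be told apart here. On scan 3, 125 of the 139 members (90.6% of those with a value on both scans) were higher on average than on scan 1, by a median of 0.25. Of the 2438 other probes of the brightest 10%, 2056 were higher on scan 3 (84.6% of those with a value on both scans), by a median of 0.23. Of the 135 members with a value on all 5 high-fat arrays, 91 (67.4%) were higher on both arrays of scan 3 than on all 3 arrays of scan 1, against 20.2% of all probes and 56.5% of the other probes of the brightest 10%. In the other direction, 38.3% of all probes and 4 members were lower on both arrays of scan 3 than on all 3 arrays of scan 1. For 32 members scan 3 was higher than scan 1 by over 0.5. Against chow, the high-fat arrays of scan 1 alone gave a member median of −0.36 and those of scan 3 alone −0.07, while all probes had 0.10 and −0.13.

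The letters around the annotated start sites of many members hold a run of C and T. RefSeq promoters (GRCr8) were matched to 66 of the 81 genes, with 67 promoters, and a run of at least 8 uninterrupted C or T was searched for on the coding strand, touching the 15 bases before or the 15 bases after the annotated start. Such a run was found in 50 of 67 member promoters (74.6%) and in 5729 of 33469 promoters of the whole table (17.1%). The mirror image, a run of at least 8 A or G, was found in 2 member promoters (2.99%) and in 18.8% of all. The letters CCGGAAG, the core of sites bound by ETS factors such as GABP, were found on either strand within the 300 bases of the promoter in 19 of 67 members (28.4%) and in 8.75% of all, and on the other strand they read CTTCCGG and can overlap a pyrimidine run. A run counted even where only its end reached the searched bases, as in Rps16, so it need not be a 5′ TOP tract. A match in letters is a description and not a site of binding.

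The windows below cover 15 bases on each side of the start, 5′ to 3′ on the coding strand, with the longest C and T run in capitals as far as it lies in the window. They are shown for members described next, from those with a long run to 2 without one (Rpl22l1 and Rpl11).
Rpl29, chr8:115947628-115947657, strand +: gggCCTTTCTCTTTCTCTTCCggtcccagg
Rpl35, chr3:43165907-43165936, strand −: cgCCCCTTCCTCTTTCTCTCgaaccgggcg
Rpl35a, chr11:81235007-81235036, strand −: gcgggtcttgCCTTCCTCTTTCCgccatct
Rps2, chr10:14251833-14251862, strand +: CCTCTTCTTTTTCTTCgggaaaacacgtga
Rps23, chr2:23814502-23814531, strand +: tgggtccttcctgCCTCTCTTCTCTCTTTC
Rpl10, chrX:157205835-157205864, strand +: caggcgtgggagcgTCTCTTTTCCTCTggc
Rplp1, chr8:71290858-71290887, strand −: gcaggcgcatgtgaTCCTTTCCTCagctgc
Rplp0, chr12:46718376-46718405, strand −: gaccgcaccgcaCTTCTCTCgccaggcgtc
Rpl22l1, chr2:113683181-113683210, strand +: gCTCCgtggatatccggttccgagttgcgc
Rpl11, chr5:153560788-153560817, strand −: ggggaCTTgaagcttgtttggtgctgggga

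Members with and without such a run had differences in the same range, and the gap between them was not tested. By the brightest probe of each gene, the 49 genes with a run had a median difference of −0.21, with 38 lower in high fat. The 15 genes without one had a median of −0.26, with 13 lower. Rpl29 and Rpl11, with the most negative differences of the brightest probes, stand at opposite ends of this comparison. Rpl29 has a run that fills most of its window, and Rpl11 has 3 pyrimidines in a row at this annotated start. The annotated start may not be the start that liver uses.

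In the small subunit, the median of 49 probes was −0.27, and 0 passed limma's test. At an unadjusted p under 0.05, 8 were lower (16.3%) and 1 higher (2.04%). Over all probes these shares were 9.14% and 10.9%, and over the other probes of the brightest 10% they were 24.7% and 3.36%. Rps6, the target of the S6 kinases downstream of mTORC1, read 4.29, 4.21, 4.29, 4.46 and 4.23 on high-fat arrays 1 to 5, against 4.45, 4.33 and 4.58 on chow arrays 1 to 3. The arrays of the diets overlapped, and the difference was −0.16 ± 0.13 (SE; adjusted p = 0.571). Rps3, which lines the channel where mRNA enters, differed by −0.03 ± 0.23 (SE; adjusted p = 0.967), and Rps18, of the head of the subunit, by −0.21 ± 0.17 (SE; adjusted p = 0.560) with chow array 1 left out as an outlier spot. The other probes of Rps6 and Rps3 had −0.35 and −0.26 (adjusted p = 0.265 and 0.475).

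Toward the lower end stood Rps2. Rps2, a protein near the mRNA entry site that is methylated by Prmt3, read 5.34, 5.19, 5.30, 5.69 and 5.53 on high-fat arrays 1 to 5, against 5.96, 5.65 and 6.14 on chow arrays 1 to 3. High-fat array 4 lay above chow array 2, so the diets overlapped, and the difference was −0.51 ± 0.18 (SE; adjusted p = 0.163). The other probes of Rps2 had differences of 0.00, −0.28 and −0.38.

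Rps27a, Rpsa, Rps25 and Rps19 had positive differences by their brightest probes, and in Rps27a, Rpsa and Rps19 other probes had negative ones. Rps27a, which is made as a fusion with ubiquitin, read 5.79, 5.40, 5.15, 5.97 and 5.33 on high-fat arrays 1 to 5, against 5.17, 4.97 and 5.40 on chow arrays 1 to 3, a difference of 0.35 ± 0.22 (SE; adjusted p = 0.421). High-fat arrays 1 and 4 stood above every other array and high-fat arrays 2, 3 and 5 in or at the edge of the chow range. Rpsa, also known as the laminin receptor, read 4.47, 3.80, 3.50, 4.66 and 3.68 on high-fat arrays 1 to 5, against 3.66 and 3.92 on chow arrays 1 and 3, with chow array 2 left out as an outlier spot. The same arrays 1 and 4 were high, and Rpsa had the most positive gap between the scans (scan 3 minus scan 1) of any member at 0.91, with a diet difference of 0.23 ± 0.35 (SE; adjusted p = 0.773). The other probe of Rpsa, A_64_P173102, had the opposite sign: it read 2.60, 2.41, 2.49, 2.86 and 2.60 on high-fat arrays 1 to 5, against 2.99, 3.00 and 3.24 on chow arrays 1 to 3, with every high-fat array below every chow array and a difference of −0.49 ± 0.15 (SE; adjusted p = 0.130). Rps25, needed for initiation at internal entry sites, and Rps19, the gene most often mutated in human Diamond-Blackfan anaemia, had differences of 0.15 and 0.11 (adjusted p = 0.75 and 0.852) with the same 2 arrays highest. The other probes of Rps19 had −0.27 and −0.20 (adjusted p = 0.374 and 0.539), and the other probe of Rps27a had −0.03 (adjusted p = 0.924).

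In the large subunit, the median of 76 probes was −0.27, with 18 lower (23.7%) and 0 higher at an unadjusted p under 0.05. Of the 76 probes, 1 passed the test after adjustment. That was Rpl29, which is also known as a heparin-binding protein of the cell surface. Rpl29 read 5.42, 5.54, 5.45, 5.53 and 5.22 on high-fat arrays 1 to 5, against 6.27, 5.94 and 6.46 on chow arrays 1 to 3. The diets did not overlap, and Rpl29 fell in high fat, with a log2 difference of −0.79 ± 0.16 (SE; adjusted p = 0.039), 1.73-fold lower, and means of 5.43 ± 0.13 in high fat and 6.22 ± 0.27 in chow (SD, n = 5 and 3). Its 95% interval ran from −1.16 to −0.41. The call rests on all arrays together: it was lost on leaving out any of the 8 arrays except chow array 2 (adjusted p = 0.065 to 0.142 in those 7 fits), and it passed under 9 of the 24 alternatives. Under all 24 the difference was negative, from −0.93 to −0.51.

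Rpl11 and Rpl5 bind 5S ribosomal RNA and, when ribosome assembly stalls, restrain Mdm2 and so stabilise p53. Rpl11 read 4.65, 4.48, 4.28, 4.21 and 3.54 on high-fat arrays 1 to 5, against 4.99, 4.67 and 5.13 on chow arrays 1 to 3. High-fat array 5 was far the lowest, the diets just missed each other between high-fat array 1 and chow array 2, and the difference of −0.70 ± 0.25 (SE; adjusted p = 0.177) did not pass. Rpl5, by contrast in sign, differed by 0.05 ± 0.16 (SE; adjusted p = 0.912), with overlapping arrays. Whether the 2 genes differ from each other was not tested.

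Rpl10, which joins the large subunit last and lets the subunits meet, read 6.20, 6.15, 6.15, 6.51 and 6.30 on high-fat arrays 1 to 5, against 6.89, 6.30 and 7.08 on chow arrays 1 to 3. High-fat array 4 lay above chow array 2, the other high-fat arrays lay below it, array 5 only just, and the difference was −0.50 ± 0.20 (SE; adjusted p = 0.213). The other probe of Rpl10 had −0.03 ± 0.19 (SE; adjusted p = 0.946). Rpl35 and Rpl35a, chosen after their values were seen, are proteins with 3 probes each. The differences were −0.20, −0.64 and −0.37 in Rpl35 and −0.46, −0.61 and −0.37 in Rpl35a, with 0 of the 6 probes passing and adjusted p of 0.071 and 0.077 for the most negative of each. Rpl3, near the site where peptide bonds form, Rpl13a, which in human cells also silences selected mRNAs, and Rpl32 differed by −0.22, −0.19 and −0.19 (adjusted p = 0.532, 0.682 and 0.685), with −0.34 and −0.15 by the other probes of Rpl32. Leaving out the gene copies, the most positive difference in the large subunit was that of Rpl7a, named after its values were seen, at 0.35 ± 0.24 (SE; adjusted p = 0.467) with high-fat array 4 left out as an outlier spot and overlapping diets. Rpl9, near the place where elongation factors bind, read 5.78, 5.51, 5.26, 5.99 and 5.47 on high-fat arrays 1 to 5, against 5.33, 5.05 and 5.79 on chow arrays 1 to 3 by its brighter probe A_64_P016307. The diets overlapped and the difference was 0.21 ± 0.23 (SE; adjusted p = 0.661), while its other probe, A_44_P266946, had −0.27 ± 0.21 (SE; adjusted p = 0.530).

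The 3 stalk genes did not share a direction. Rplp0, the base of the stalk, read 6.0, 5.72, 5.71, 6.03 and 5.80 on high-fat arrays 1 to 5, against 6.38, 5.93 and 6.50 on chow arrays 1 to 3. Only high-fat arrays 1 and 4 reached the lowest chow array, and the difference was −0.42 ± 0.18 (SE; adjusted p = 0.230), with −0.37 by its other probe (adjusted p = 0.286). Rplp1, which binds Rplp0 as a dimer with Rplp2, read 5.48, 5.01, 4.84, 5.69 and 5.02 on high-fat arrays 1 to 5, against 4.95, 4.55 and 5.11 on chow arrays 1 to 3. High-fat arrays 1 and 4 were above every chow array while arrays 2, 3 and 5 overlapped them, and the difference was 0.34 ± 0.24 (SE; adjusted p = 0.475). Rplp2 differed by −0.28 ± 0.23 (SE; adjusted p = 0.539). None passed the test, and the difference between Rplp1 and its partners was not tested.

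Among the gene copies and paralogs, the median of 10 probes was 0.09. A probe of Rpl37l1, which the RefSeq table lists with the synonym Rpl37, read 3.72, 3.65, 3.70, 3.68 and 3.68 on high-fat arrays 1 to 5, against 4.27, 4.17 and 4.54 on chow arrays 1 to 3. The high-fat arrays lay close together and below all chow arrays, and the probe fell in high fat, with a log2 difference of −0.64 ± 0.14 (SE; adjusted p = 0.040). The other probes of Rpl37l1 differed by −0.09 and 0.04 with overlapping arrays. The call was lost on leaving out any 1 of the 8 arrays (adjusted p = 0.064 to 0.136) and passed under 8 of 24 alternatives. Whether these probes tell the copies of a gene apart was not tested.

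Rpl22l1, a paralog of Rpl22 that is held down by it in mouse cells, has 2 probes with differences of opposite sign. Its bright probe, A_64_P053916, read 4.15, 3.73, 3.47, 4.16 and 3.53 on high-fat arrays 1 to 5, against 4.08, 3.72 and 4.41 on chow arrays 1 to 3. Arrays of the diets overlapped, with a difference of −0.26 ± 0.24 (SE; adjusted p = 0.603). Its dim probe, A_64_P085700, read −2.93, −2.57, −2.68, −2.65 and −3.42 on high-fat arrays 1 to 5, against −3.57, −3.73 and −3.81 on chow arrays 1 to 3. All high-fat arrays were above all chow arrays there, and the difference of 0.86 ± 0.21 (SE; adjusted p = 0.071) did not pass. It passed under 4 of the 23 alternatives that could be fitted. Across them the difference ran from −0.13, with normexp background correction, to 1.07, so its sign depended on the background correction. Rpl22 itself had 0.06 by its brighter probe A_64_P126428 (adjusted p = 0.923, diets overlapping) and −0.40 by its other probe A_64_P010520 (adjusted p = 0.174), where every high-fat array was below every chow array.

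Rps4y2, a copy of the Rps4 gene, carried the most positive difference of any member and the only one above 2-fold. Its dimmer probe, A_64_P037993, read 0.60, 0.35, −0.52, 1.38 and 0.91 on high-fat arrays 1 to 5, against 0.17, −1.67 and −0.72 on chow arrays 1 to 3. High-fat array 4 was highest and chow array 2 lowest, the diets overlapped, and the difference of 1.28 ± 0.49 (SE; adjusted p = 0.198) did not pass. Its brighter probe, A_64_P037994, read 2.05, 2.25, 2.07, 2.02 and 2.5 on high-fat arrays 1 to 5, against 2.21, 1.87 and 2.04 on chow arrays 1 to 3, a difference of 0.14 ± 0.16 (SE; adjusted p = 0.703). The remaining copies were Rpl36al1, at 0.41 (adjusted p = 0.426), and Rpl39l1, whose mouse counterpart is known from testis, at −0.26 (adjusted p = 0.895). Rpl39l1 is a dim probe with an SD of 1.86 over the 3 chow arrays. Rps12l4, chosen after its values were seen, cleared background on 5 of 5 high-fat arrays and 0 of 3 chow arrays. Its mean in high fat lay below the lowest signal above background on the chow arrays, so no difference is reported. It was kept by the filter only through the high-fat arrays.

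**Figure D4:**
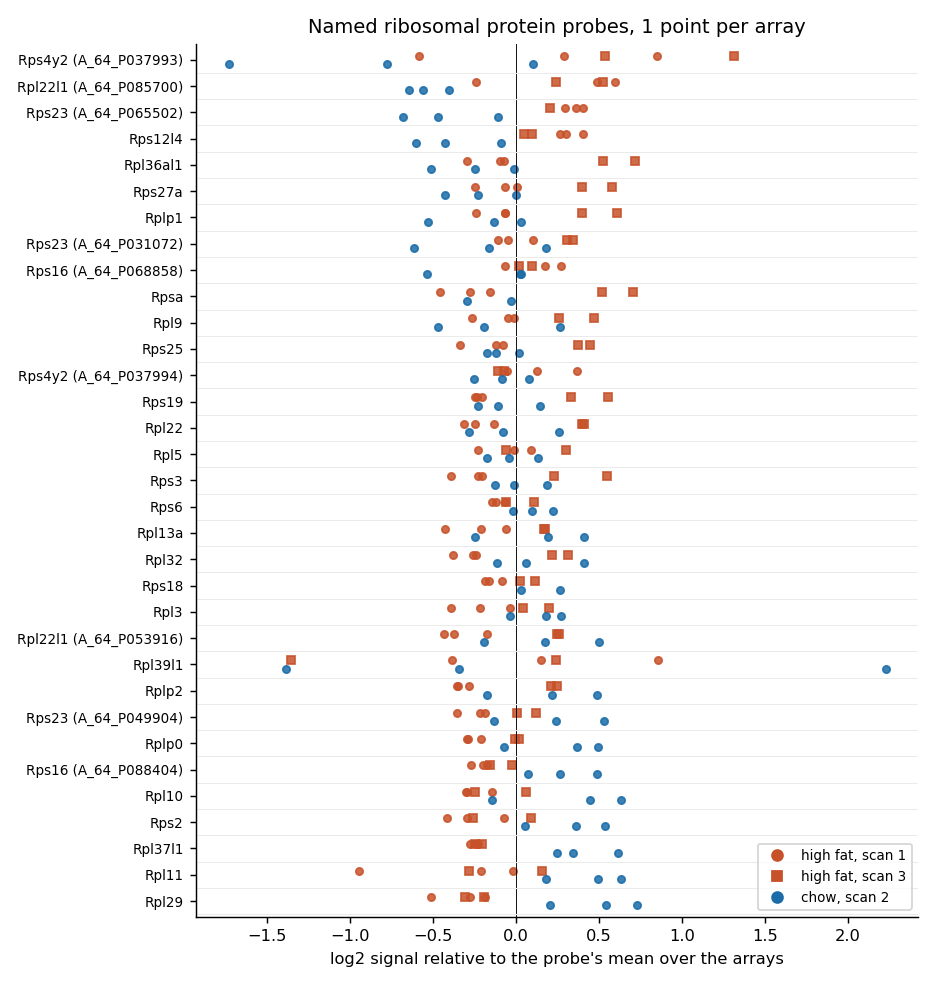
The x axis gives each probe's log2 signal minus its own mean over the arrays, with 1 line per probe and 1 point per array: orange circles are high-fat arrays of scan 1, orange squares high-fat arrays of scan 3 and blue circles chow arrays. In Rpl29 and the Rpl37l1 probe at the bottom all orange points lie left of the blue ones. In Rps27a, Rplp1, Rpsa, Rpl9, Rps25 and Rps19 the orange squares stand apart to the right of the orange circles.

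Probes of the same gene mostly had differences of the same sign. In the 45 genes with at least 2 probes above background on all 8 arrays, the median gap between the highest and lowest difference was 0.17. In 6 genes it was over 0.5. The probes had the same sign in 34 genes and opposite signs in 11. Counting only probes above background on all 8 arrays, the widest gaps were 1.14 in Rps4y2, 1.11 in Rpl22l1 and 0.70 in Rps16. Rps23 has a further probe, with 1 array left out, that lies outside this count and is described in the next paragraph. Rps16, whose tail reaches the tRNA in the decoding site, had −0.44 by its bright probe A_64_P088404 (adjusted p = 0.142, diets not overlapping) and 0.26 by its dim probe A_64_P068858 (adjusted p = 0.463, diets overlapping).

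Rps23, a protein of the decoding site that is hydroxylated by Ogfod1, had 3 probes with differences of unlike sign. The brightest, A_64_P049904, read 6.16, 5.94, 5.80, 6.28 and 5.97 on high-fat arrays 1 to 5, against 6.40, 6.02 and 6.68 on chow arrays 1 to 3, a difference of −0.34 ± 0.19 (SE; adjusted p = 0.363). The second, A_64_P031072, read 5.73, 5.38, 5.31, 5.77 and 5.53 on high-fat arrays 1 to 5, against 5.26, 4.81 and 5.61 on chow arrays 1 to 3, a difference of 0.32 ± 0.21 (SE; adjusted p = 0.448). The diets overlapped on both. The dimmest, A_64_P065502, chosen after its values were seen, read 4.45, 4.65, 4.54 and 4.6 on high-fat arrays 1, 2, 3 and 5, against 3.78, 3.56 and 4.14 on chow arrays 1 to 3, with high-fat array 4 left out as an outlier spot. There every high-fat array lay above every chow array, and the difference of 0.74 ± 0.18 (SE; adjusted p = 0.075) did not pass, although it passed under 8 of the 21 alternatives that could be fitted. All 3 probes belong to the brightest 10%.

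**Figure D5:**
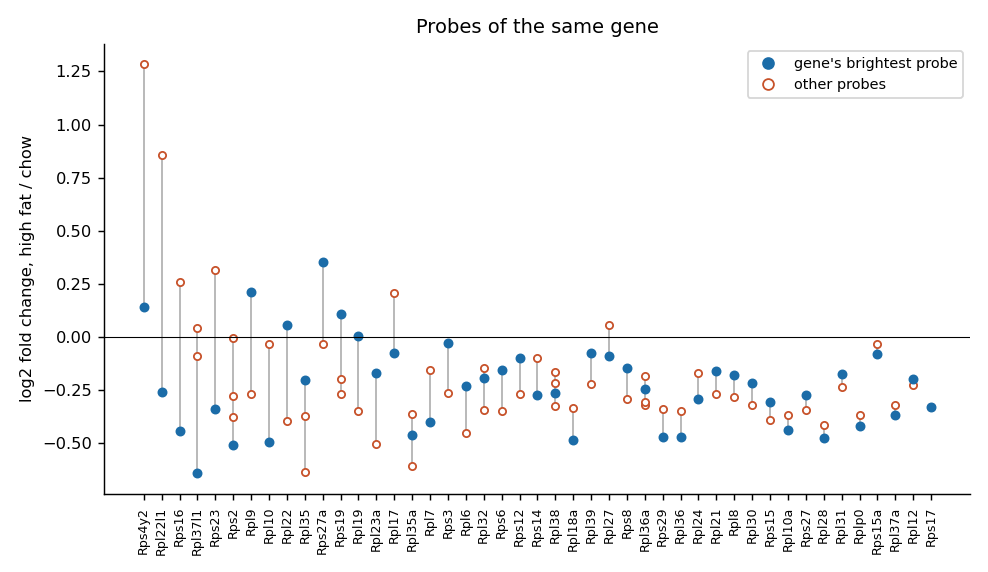
For each of the 45 genes with at least 2 probes above background on all 8 arrays, the y axis gives the log2 difference, high fat over chow, of its brightest probe (filled) and of its other probes (open), joined by a line. Genes are ordered by the gap between their probes, which is over 0.5 in the 6 genes on the left, from 1.14 in Rps4y2 downwards.

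Other proteins of translation were listed for comparison, to be read against the 3% of all probes called higher and 0.453% called lower. Among ribosomal proteins whose symbols fall outside the rule, Fau, the precursor of the small-subunit protein Rps30, had differences of −0.43, −0.61 and −0.27 by its 3 probes, and Rack1, the scaffold on the small subunit, had −0.22, with adjusted p of 0.187, 0.203, 0.441 and 0.467. Of 42 probes of initiation factors, 1 rose, 0 fell and the median was −0.02. The one that rose was Eif3h, a subunit of the factor that holds the small subunit, at 2.71, 2.77, 2.53, 2.34 and 2.39 on high-fat arrays 1 to 5, against 1.29, 1.5 and 1.55 on chow arrays 1 to 3. The diets did not overlap and the difference was 1.1 ± 0.16 (SE; adjusted p = 0.009).

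Of 19 probes in the list of elongation and release factors, 1 rose, 0 fell and the median was −0.10. The probe that rose was of Tpt1, which the list held although it is not itself an elongation or release factor. Its mRNA has a 5′ TOP tract as those of ribosomal proteins do. The probe read 4.44, 4.43, 4.6, 4.49 and 4.38 on high-fat arrays 1 to 5, against 3.77, 3.78 and 3.96 on chow arrays 1 to 3. The diets did not overlap and the difference was 0.63 ± 0.13 (SE; adjusted p = 0.038). Of 34 probes of the mTORC1 pathway and the regulators of 5′ TOP mRNAs, 0 passed limma's test in either direction, and the median was −0.12. At an unadjusted p under 0.05, 5 were lower (14.7%, against 9.14% of all probes) and 2 higher (5.88%, against 10.9%).

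Few probes of genes that make ribosomes passed the test, and with normexp background correction 0 did. Of 25 probes of RNA polymerase I and its factors, 1 fell, 1 was called against chow arrays on which it was not well above background (Ubtf), and the median was 0.05. Polr2h, a subunit shared by the RNA polymerases, fell, with a log2 difference of −0.63 ± 0.13 (SE; adjusted p = 0.036). The Ubtf probe, of the factor that opens ribosomal RNA genes, was above background on 5 high-fat and 0 chow arrays, so it was kept only through the high-fat arrays. Its mean in high fat did not exceed the lowest signal above background on the chow arrays, and no difference is reported. Of 108 probes of assembly factors, 1 fell, 1 was called against chow arrays on which it was not well above background (Utp20), and the median was 0.03. Tbl3, a factor of small-subunit assembly, fell, with a log2 difference of −0.76 ± 0.16 (SE; adjusted p = 0.046). The Utp20 probe, of the same machinery, was likewise above background on 5 high-fat and 0 chow arrays and kept only through the high-fat arrays. Its mean in high fat was 1.17 times the lowest signal above background on the chow arrays. That signal is not a strict upper limit for a probe below background, so no difference between the diets is reported.

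Of 16 probes of p53 genes that respond to stalled ribosome assembly, 1 rose, 0 fell and the median was 0.21. Ccng1, a p53 target, read 1.87, 1.55, 1.46, 1.38 and 0.98 on high-fat arrays 1 to 5, against −0.29, 0.19 and −0.09 on chow arrays 1 to 3. The diets did not overlap and the difference was 1.51 ± 0.22 (SE; adjusted p = 0.009).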

How the data were processed

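Single-colour arrays of 5 high-fat and 3 chow liver samples were read with Agilent Feature Extraction 11.0.1.1, per the submitters' processing notes. The processed signal is an intensity, per the file headers, with background subtracted and arrays not yet scaled to each other. The deposited value table holds log2 values, whose normalization is not given in the sources used here. It served as an alternative, and so did the spot and local background intensity deposited by the authors.

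From the intensity, outlier spots (331 to 550 per array) were dropped, 0 spots were saturated, log2 signals of a probe's spots were averaged and the array's 75th percentile was subtracted. Probes with at least 0.5 of their spots well above background on at least 3 of 8 arrays were kept. Of 25629 such probes, 25627 could be fitted. Accessions were named through a RefSeq table of GRCr8, whose coordinates are printed only for promoters. High fat was compared with chow by limma 3.58.1 (lmFit and eBayes, R 4.3.3), two-sided. The threshold was 0.05 after Benjamini-Hochberg adjustment over every probe tested. The fit was tested on simulated data. Values with 1 number per array had an exact permutation test. The brightest 10% was cut on the mean over 8 arrays. A few member genes were named whatever their p for their known roles, and others as passing, as the 5 highest and 5 lowest by each gene's brightest probe among probes above background on all 8 arrays, or as the 3 genes whose probes differed most. Rpl7l1 and Rps27l were not analysed here, and some genes that met the naming rule are left out. The members and lists were chosen with earlier results of these data known. Alternatives covered background correction, normalization, filters, weights, scan and single arrays. The numbers of the samples showed no sign of pairing the diets: deviations of same-numbered arrays correlated at 0.08, −0.01 and 0.05. With so few arrays and scan confounded with diet, these correlations cannot exclude a pairing. Of the 28 pairs of arrays, 0 were identical.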

Additional observations from a re-analysis of the deposited data

How the results depend on the processing

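The number of members passing the test moved with the processing, against 2 lower and 0 higher as reported, and the cause was not tested. Normexp background correction left 0 lower, quantile normalization 0 lower and 1 higher, both together 8 lower and 12 higher, cyclic loess 0 lower and 3 higher, and the values that the authors deposited 0 lower and 1 higher. An intensity trend in the variances gave 5 lower and 1 higher, array weights 15 lower and 3 higher, and scan as a random block (correlation 0.44) 0 lower. The high-fat arrays of scan 3 alone gave 1 lower and 1 higher, and those of scan 1 alone 6 lower and 2 higher. The replicate number as a block gave 0 lower, and whether these numbers pair the samples is not known. Leaving out 1 array at a time gave 0 to 1 lower, 0 to 1 higher and a median member difference of −0.37 to −0.13. That median was −0.034 with quantile normalization, −0.028 with normexp and quantile together, −0.0094 with cyclic loess and −0.031 in the authors' deposited table. Centring on the brightest 10%, chosen after seeing the data, gave a median of −0.047 with 81 members lower and 58 higher, 0 lower calls and 2 higher: the probe A_64_P065502 of Rps23 (0.98, adjusted p = 0.025) and the dim probe A_64_P085700 of Rpl22l1 (1.07, adjusted p = 0.038). Dropping the filter, requiring all 8 arrays, keeping outlier spots and 1 probe per gene left 2 lower and 0 higher. Calls in the lists of other genes moved too. Normexp background correction left 0 among initiation, elongation, polymerase I and assembly factors, and 1 higher among the p53 genes. Quantile normalization and cyclic loess each kept at least 1 call in every one of these lists. Scan as a random block left 0 probes called lower over the whole array. Signal over background limits the chow arrays most, where fewer probes were above background than on any high-fat array.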
